A study of Cricetulus griseus with 20 samples.

Results

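Aim2, Pycard and Il18 are 3 of the 10318 mRNAs listed for Chinese hamster preadipocytes differentiating under hypoxia, and 3 of the 3858 that carry a gene name in the tables published with the study. They were chosen by gene name, and the names are themselves tied to measured values. Aim2 is named only among the mRNAs that the study called different between hypoxia and normoxia, Il18 is named there and among the study's adipose-associated genes, and Pycard is named among the latter genes alone. All values of hypoxia set against normoxia are therefore given for these genes as a description, without a test. The 3 genes were matched to the rows ENSCGRG00015015566 (Aim2), ENSCGRG00015023751 (Pycard) and ENSCGRG00015021623 (Il18).

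The inflammasome is a protein complex that assembles in the cytosol when a sensor meets a danger signal. AIM2 is the sensor of cytosolic double-stranded DNA. PYCARD, also called ASC, is the adaptor that joins sensors to caspase-1, and caspase-1 cuts the precursors of IL-18 and IL-1β into the active cytokines. In adipose tissue the complex is best known from macrophages, and preadipocytes and adipocytes also carry some of its parts. An mRNA level is not a measure of complex assembly, of cleavage or of secretion.

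The cells were primary preadipocytes from the inguinal white adipose tissue (iWAT) of 6-week-old female hamsters, whose tissue was pooled before culture. Cells collected after D0 had been induced at D0 with dexamethasone, insulin and IBMX, which insulin alone replaced 2 days later. D1 cells were thus collected before this change of medium, and D3, D7 and D11 cells after it. Hypoxia groups spent the last 24 h before collection at D0, D1, D3, D7 or D11 in 1% O2, and normoxia groups of the same day stayed in conventional air. A hypoxia group of one day is thus not an earlier hypoxia group grown further, and D0 cells were collected before induction. Each of the 10 groups had 2 libraries, 20 in all. The study calls them biological replicates without stating that each had its own culture, so that p-values measure the spread between these libraries, part of which may be technical. Levels are TPM, an abundance scaled to the same total in every library and corrected for transcript length.

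Some features of the whole series bear on the 3 genes. Of 10 well-known targets of the hypoxia-inducible factor, all 10 were called higher in hypoxia at D0, D1 and D3, and 4 at D7, whereas at D11 1 was called higher and 1 lower. At D11 Eno2 had 23.7 to 26.4 TPM in hypoxia, against 11.1 to 12.7 TPM in normoxia, and Ddit4, Ankrd37 and Egln1 were also above normoxia without overlap, while Bnip3 had 313.0 to 319.8 TPM in hypoxia, against 616.5 to 761.7 TPM in normoxia, and Slc2a1, Ldha, Pgk1 and Gapdh were also below it. With libraries centred on their medians, 0 of the 10 were called higher at D11 and 3 lower. These targets thus gave no common direction at D11, and the directions given for that day follow the labels. Over all mRNAs the log2 fold change, hypoxia minus normoxia, had a median of -0.05, -0.09, -0.07, -0.19 and 0.51 in the order of the days, so that a relative log2 fold change, with that median subtracted, is given throughout. Summed over the listed mRNAs, TPM made up 27.9% to 45.8% of a library's total. Of 22 macrophage markers 3 carry a name (Fcer1g, Cd53 and Lcp1), and they summed to 11.1 to 28.7 TPM. The 7 named adipocyte markers of 12 listed summed to 68.4 to 589.6 TPM, and the 3 named preadipocyte markers of 14 (Pdgfra, Dcn and Zfp521) to 6.94 to 55.7 TPM. Pecam1, the 1 endothelial marker named of 9, had 0.565 to 9.03 TPM, and the 2 epithelial markers named of 6 summed to 0.518 to 14.3 TPM. None of the named markers was at 0 in all libraries, and the other listed markers, among them Cd68, Adgre1 and Ptprc, carry no name in these tables and were not examined. In bulk RNA, fewer cells of a type and less RNA per cell cannot be told apart.

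Aim2, the DNA sensor, was higher in hypoxia than in normoxia at D0, D1, D3 and D7 and lower in hypoxia at D11, with no overlap between the libraries at any of the 5 days. At D0 it had 21.8 and 16.2 TPM in hypoxia, against 7.38 and 6.80 TPM in normoxia. At D1 it had 5.50 and 8.61 TPM in hypoxia, against 1.58 and 1.82 TPM in normoxia. These were the lowest Aim2 levels of either oxygen condition, and the hypoxia libraries still stood above both normoxia libraries. At D3 the gene had 25.0 and 24.3 TPM in hypoxia, against 4.97 and 6.64 TPM in normoxia. At D7 it had 37.8 and 34.7 TPM in hypoxia, against 18.0 and 18.2 TPM in normoxia. At D11 the order was turned round, with 30.5 and 31.7 TPM in hypoxia, against 47.8 and 60.3 TPM in normoxia, the highest level of the gene in the series.

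The mean Aim2 level in hypoxia was thus 2.68, 4.15, 4.25, 2.00 and 0.575 times that in normoxia at D0, D1, D3, D7 and D11. On the scale of log2(TPM + 1), the relative log2 fold change was 1.34, 1.64, 1.99, 1.16 and -1.29 at these days, with a standard error of 0.17 at each. The macrophage markers did not share 1 direction beside Aim2. At D11 Lcp1, an actin-bundling protein of leukocytes, had 12.7 to 14.1 TPM in hypoxia, against 22.4 to 27.5 TPM in normoxia, while Fcer1g, a signalling chain of Fc receptors, and Cd53, a tetraspanin of leukocytes, were higher in hypoxia. The sum of the 3 overlapped between the conditions at D0 and D3, was 15.9 to 20.0 TPM in hypoxia at D1, against 14.0 to 14.4 TPM in normoxia, and was 17.2 TPM in both hypoxia libraries at D7, against 15.7 to 16.8 TPM in normoxia. The same sum was 21.5 to 21.8 TPM in hypoxia at D11, against 23.5 to 28.7 TPM in normoxia. The sum thus had the order of Aim2 at D1, D7 and D11. At D1 each of the 3 markers was higher in hypoxia. At D7 and D11 the sum was mostly Lcp1, and its order was that of Lcp1 alone. At D7 Lcp1 had 15.9 to 16.2 TPM in hypoxia, against 13.2 to 13.3 TPM in normoxia. Fcer1g and Cd53 were lower in hypoxia without overlap at D7, where Aim2 was higher.

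Other markers were higher in hypoxia with Aim2 at D0, D1 and D3. Krt7, a keratin, had 10.5 to 11.1 TPM in hypoxia at D3, against 1.60 to 2.45 TPM in normoxia, while Epcam, the other epithelial marker, overlapped between the conditions at D1 and D3 and was lower in hypoxia at D0. Pecam1 had 7.78 to 9.03 TPM in hypoxia at D3, against 5.47 to 5.52 TPM in normoxia. The preadipocyte markers summed to 28.8 to 35.6 TPM in hypoxia at D3, against 17.6 to 18.5 TPM in normoxia. Pecam1, Krt7 and the preadipocyte sum were also higher in hypoxia without overlap at D0 and D1. At D7 Pecam1 and the preadipocyte sum were lower in hypoxia, where Aim2 was higher, and Krt7 overlapped. At D11 Pecam1, Krt7 and the preadipocyte sum were higher in hypoxia without overlap, where Aim2 was lower. The preadipocyte sum was then 52.7 to 55.7 TPM in hypoxia, against 11.6 to 15.2 TPM in normoxia. The adipocyte sum was 183.8 to 184.5 TPM in hypoxia at D0, against 165.7 to 169.4 TPM in normoxia. It was also higher in hypoxia without overlap at D1, lower at D3 and D7, and overlapped at D11. Of the adipocyte markers, Pparg had the order of Aim2 at D0, D1, D7 and D11 and the opposite order at D3. Pparg had 161.4 to 178.5 TPM in hypoxia at D11, against 220.5 to 293.6 TPM in normoxia. The other adipocyte markers did not share this order at D11. Cd36, Lpl, Pnpla2, Lipe and Dgat2 were higher in hypoxia without overlap on that day, opposite to Aim2, and Fabp4 overlapped. The part of all these markers in the Aim2 values was not tested.

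**Figure D1:**
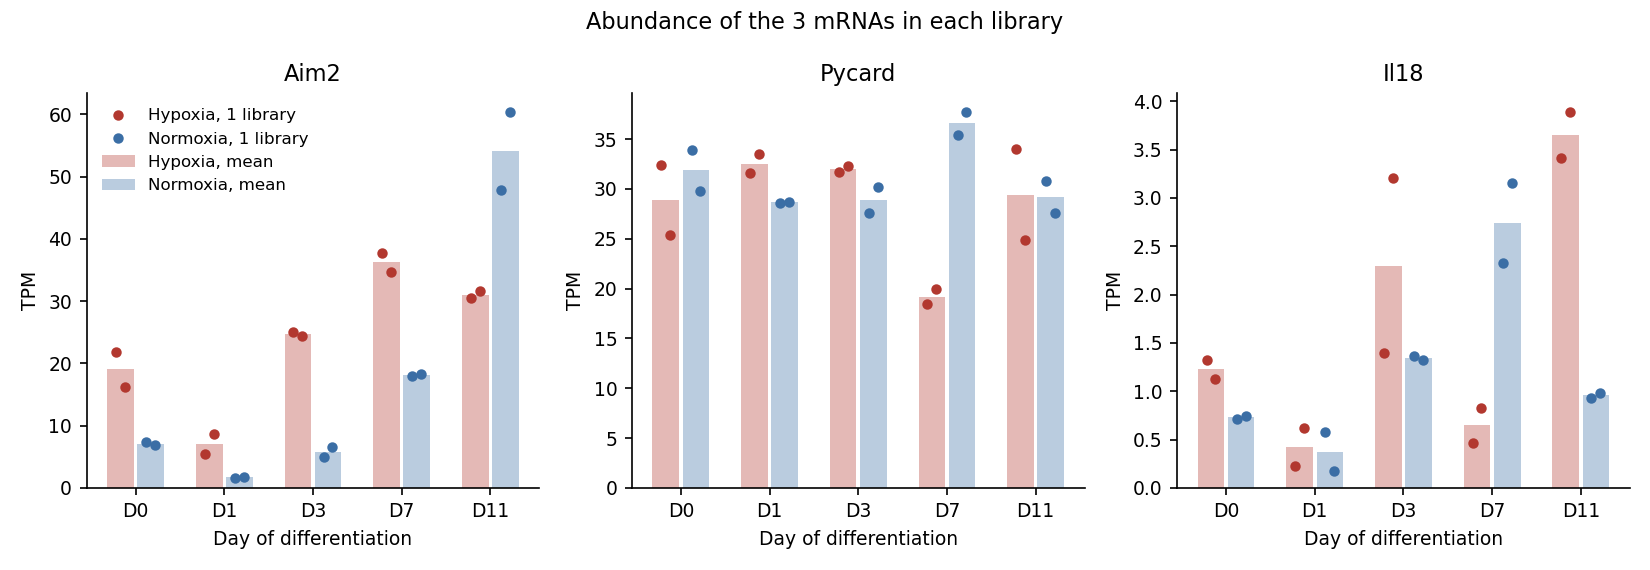
TPM (vertical axis, from 0) of Aim2, Pycard and Il18 in each library by day of differentiation, with hypoxia left of normoxia at each day. Points are single libraries and bars are the mean of the 2 libraries of a group, and the scales of the 3 panels differ. Aim2 is higher in hypoxia up to D7 and lower at D11, Pycard stands apart at D7 with 18.4 and 19.9 TPM in hypoxia against 35.4 and 37.7 TPM in normoxia, and Il18 has opposite orders at D7 and D11.

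Pycard, the adaptor, varied least of the 3 genes, and its hypoxia and normoxia groups lay farthest apart at D7. At D7 it had 18.4 and 19.9 TPM in hypoxia, against 35.4 and 37.7 TPM in normoxia, the lowest and the highest group of the series. Its libraries did not overlap at D1, with 31.6 and 33.5 TPM in hypoxia, against 28.6 and 28.7 TPM in normoxia. At D3 it had 31.7 and 32.3 TPM in hypoxia, against 27.6 and 30.2 TPM in normoxia. The differences at D1 and D3 were small beside that at D7. The libraries overlapped at the other 2 days. At D0 Pycard had 32.4 and 25.3 TPM in hypoxia, against 33.9 and 29.8 TPM in normoxia. At D11 it had 34.0 and 24.8 TPM in hypoxia, against 30.8 and 27.6 TPM in normoxia, and the spread between the 2 hypoxia libraries was wider than the difference between the groups. The mean level in hypoxia was 0.906, 1.14, 1.11, 0.524 and 1.01 times that in normoxia at D0, D1, D3, D7 and D11. The relative log2 fold change came to -0.10, 0.27, 0.21, -0.70 and -0.52, with a standard error of 0.13. The value at D11 comes from the median of all mRNAs, which was higher in hypoxia while Pycard itself had a log2 fold change of -0.01. At D7, where Pycard was lower, the 7 adipocyte markers summed to 401.9 to 448.6 TPM in hypoxia, against 570.7 to 589.6 TPM in normoxia. They did not share 1 direction. Fabp4, with 189.3 to 241.1 TPM in hypoxia, against 414.0 to 428.3 TPM in normoxia, and Cd36 were lower in hypoxia. Pparg, with 131.2 to 152.9 TPM in hypoxia, against 68.0 to 80.5 TPM in normoxia, was higher. Pnpla2, Lipe and Dgat2 were also higher in hypoxia without overlap, and Lpl overlapped. The part of the adipocyte markers in the Pycard values was not tested.

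Il18, the cytokine that acts on T cells and natural killer cells after caspase-1 has cut its precursor, was a low-abundance mRNA, and its order between the oxygen conditions at D7 was opposite to that at D11. At D7 it had 0.468 and 0.826 TPM in hypoxia, against 2.33 and 3.15 TPM in normoxia. At D11 it had 3.41 and 3.89 TPM in hypoxia, against 0.934 and 0.982 TPM in normoxia. The mean in hypoxia was thus 0.236 times that in normoxia at D7 and 3.81 times at D11. At D0 Il18 had 1.33 and 1.13 TPM in hypoxia, against 0.713 and 0.745 TPM in normoxia. At D3 it had 1.39 and 3.20 TPM in hypoxia, against 1.36 and 1.32 TPM in normoxia, and the difference rests on the second hypoxia library. At D1 the libraries overlapped, with 0.222 and 0.622 TPM in hypoxia, against 0.577 and 0.172 TPM in normoxia.

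From D0 to D11 the relative log2 fold change of Il18 came to 0.41, 0.14, 0.50, -0.99 and 0.73 (SE 0.20). At D3 it was 0.07 without hypoxia replicate 2 and 0.94 without hypoxia replicate 1. The added 1 TPM shrinks the change of so low an mRNA, and with 0.1 TPM in its place the value was -1.71 at D7 and 1.22 at D11. TPM keeps no read depth, and the counting error of these low levels was not estimated. In another assembly of the hamster genome, CriGri-PICRH-1.0, the annotated Il18 gene overlaps Bco2 and Tex12, and reads of overlapping genes may be assigned wrongly. The summed preadipocyte markers had the order of Il18 at D0, D3, D7 and D11. They came to 17.1 to 23.0 TPM in hypoxia at D7, against 29.0 to 32.1 TPM in normoxia, where Pdgfra and Zfp521 were lower in hypoxia and Dcn overlapped. At D11 they came to 52.7 to 55.7 TPM in hypoxia, against 11.6 to 15.2 TPM in normoxia, and all 3 were higher in hypoxia. Of the macrophage markers, Fcer1g and Cd53 were lower in hypoxia at D7 and higher at D11, and Lcp1 had the opposite order at both days, with 15.9 to 16.2 TPM in hypoxia at D7, against 13.2 to 13.3 TPM in normoxia. Pecam1 was likewise lower in hypoxia at D7 and higher at D11. Of the adipocyte markers, Cd36 also had the order of Il18 at D0, D3, D7 and D11. It had 38.1 to 57.1 TPM in hypoxia at D7, against 60.5 to 77.8 TPM in normoxia. At D7 Fabp4 was lower in hypoxia too, Pparg, Pnpla2, Lipe and Dgat2 were higher, and Lpl overlapped. At D11 Lpl, Pnpla2, Lipe and Dgat2 were higher in hypoxia, Pparg was lower, and Fabp4 overlapped. The part of these markers in the Il18 values was not tested.

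**Figure D2:**
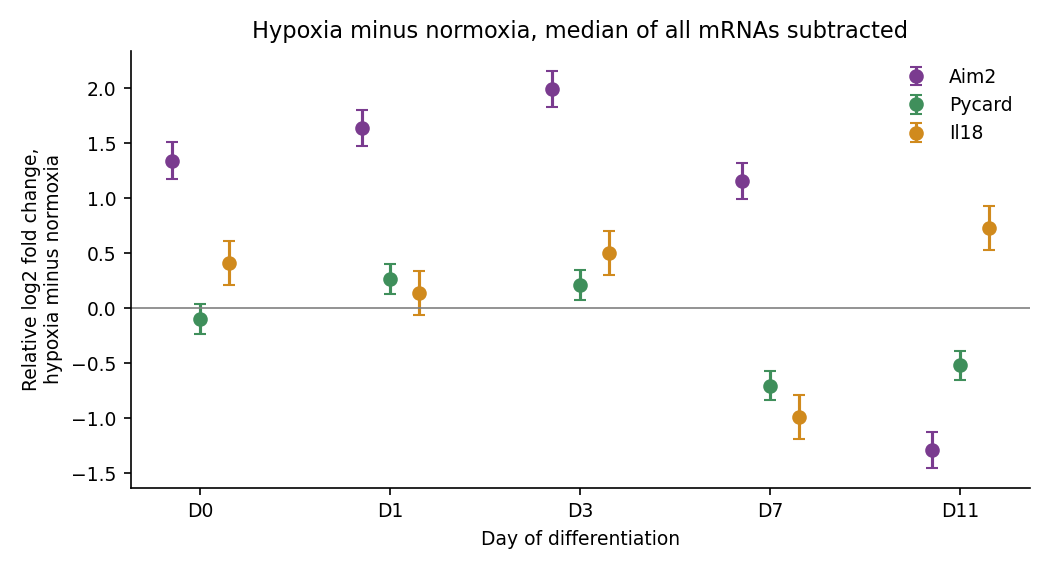
Relative log2 fold change of log2(TPM + 1), hypoxia minus normoxia with the median of all mRNAs subtracted (vertical axis), by day for Aim2, Pycard and Il18. Points are fitted values and bars are 1 standard error from a fit of all 20 libraries. Aim2 lies above 0 until D7 and at -1.29 at D11, and Il18 lies at -0.99 at D7 and at 0.73 at D11.

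The libraries of hypoxia and normoxia did not overlap at 5 of 5 days for Aim2, at 4 for Il18 and at 3 for Pycard. With 2 libraries a group this is common, since 58.1%, 62.6%, 66.1%, 75.3% and 84.6% of all mRNAs did not overlap at D0, D1, D3, D7 and D11. By the study's thresholds, an absolute log2 fold change over 1 and an adjusted p under 0.05, applied here in limma, Aim2 was the 1 gene of the 3 that passed as higher in hypoxia at D0, D1 and D3, where 0.853%, 1.29% and 1.4% of all mRNAs passed as higher and 0.0291%, 0.485% and 0.485% as lower. Il18 alone passed as lower at D7, beside 4.86% of all mRNAs lower and 0.688% higher, and Il18 alone passed as higher at D11, beside 21.2% higher and 2.64% lower. Just under the fold threshold at D7 lay Aim2 with a log2 fold change of 0.96 and Pycard with -0.90, and just over it lay Il18 with -1.18. These passes are a description, since they belong to the contrast that chose the names. With each library centred on its median, the called mRNAs were 178 higher and 198 lower at D7, instead of 71 and 501, and 404 higher and 1004 lower at D11, instead of 2192 and 272. At D1 they were 166 and 28 instead of 133 and 50, and at D3 177 and 29 instead of 144 and 50. In the centred fit Aim2 passed as higher at D7 and as lower at D11, and Il18 passed at neither day.

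The course over days was a separate question, tested as the later minus the earlier of successive days within an oxygen condition, with libraries that also enter the values above. Aim2 fell at D1 and rose at D3 in both conditions, and in normoxia it rose again at D7 and at D11. In normoxia at D1 the log2 fold change against D0 was -1.58 (SE 0.17, limma adjusted p = 6e-07), a mean of 1.70 TPM at D1 against 7.09 TPM at D0. It then rose by 1.32 at D3 against D1 (limma adjusted p = 7.6e-06), by 1.50 at D7 against D3 (7.6e-07) and by 1.52 at D11 against D7 (3.2e-07). Between D1 and D11 these were 3 successive steps of 3.41, 3.12 and 2.99 times. In hypoxia the log2 fold change was -1.33 at D1 against D0 (limma adjusted p = 3.2e-06) and 1.70 at D3 against D1 (3.3e-07). It was 0.53 at D7 against D3 (limma adjusted p = 0.0094), under the fold threshold, and -0.21 at D11 against D7 (0.23). The last hypoxia step depends on the scaling, since the median of all mRNAs was 0.72 higher at D11. With libraries centred on their medians Aim2 was called lower in hypoxia at D11 than at D7, with a log2 fold change of -1.01 (limma adjusted p = 6.1e-06). Whether the steps differed between hypoxia and normoxia was not tested.

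Pycard was called at none of the 8 steps. In hypoxia its log2 fold change was -0.71 at D7 against D3 (SE 0.13, limma adjusted p = 0.00017) and 0.58 at D11 against D7 (0.00058), both under the fold threshold. The second of these was -0.22 with libraries centred on their medians (limma adjusted p = 0.14), so that its direction was not kept. Its mean was 19.2 TPM in hypoxia at D7, against 32.0 TPM at D3. In normoxia the 4 log2 fold changes lay between -0.32 and 0.33, with limma adjusted p between 0.05 and 0.97.

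Il18 was called at 2 steps, both in hypoxia. At D3 against D1 it rose by 1.17 on the log2 scale (SE 0.20, limma adjusted p = 0.00018), a mean of 2.30 TPM at D3 against 0.422 TPM at D1, and without hypoxia D3 replicate 2 the value was 0.76 (0.0071) and not called. Without hypoxia D1 replicate 1 it was 0.97 (limma adjusted p = 0.0066), and this too was not called. At D11 against D7 it rose by 1.50 (limma adjusted p = 9.4e-07), a mean of 3.65 TPM at D11 against 0.647 TPM at D7. That call was lost with libraries centred on their medians, where the value was 0.70 (limma adjusted p = 0.011). In hypoxia at D7 against D3 the log2 fold change was -0.95 (limma adjusted p = 0.00042), and in normoxia at D11 against D7 it was -0.92 (0.00054), both just under the fold threshold. With 0.1 TPM added in place of 1 both passed it, at -1.61 and -1.41. The hypoxia step also passed without hypoxia D3 replicate 1 (-1.36) or without hypoxia D7 replicate 2 (-1.11), and the normoxia step without normoxia D7 replicate 1 (-1.08).

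**Figure D3:**
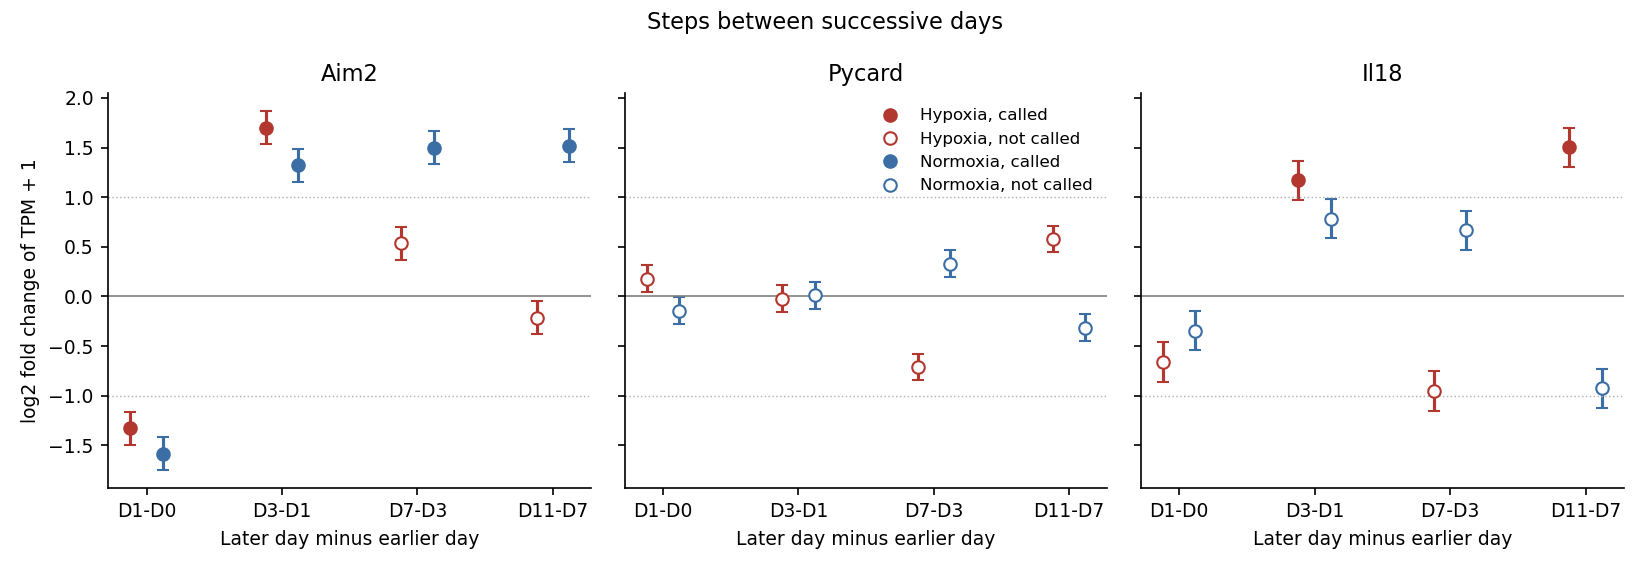
Log2 fold change of TPM + 1 (vertical axis) between successive days, later minus earlier, for Aim2, Pycard and Il18, with hypoxia left of normoxia. Bars are 1 standard error, filled points were called by limma (adjusted p under 0.05 and past the dotted lines at -1 and 1) and open points were not. Aim2 is called at all 4 normoxia steps and 2 hypoxia steps, Pycard at none, and Il18 at 2 hypoxia steps.

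These counts are read against the share of all mRNAs called in either direction at each step. In normoxia 1 of the 3 genes, Aim2, was called at each step, where 3.39% (D1 against D0), 2.55% (D3 against D1), 5.07% (D7 against D3) and 9.42% (D11 against D7) of all mRNAs were called. In hypoxia the counts were 1, 2, 0 and 1 of 3, where 4.58%, 2.62%, 7.41% and 29.0% of all mRNAs were called. The median step of all mRNAs, on the log2 scale, was -0.19, -0.09, -0.14 and 0.01 at the normoxia steps and -0.24, -0.05, -0.29 and 0.72 at the hypoxia steps. Centring on the medians left 179 mRNAs higher and 546 lower at the last hypoxia step, instead of 2942 and 47. It left 262 and 210 instead of 72 and 693 at D7 against D3 in hypoxia, and 240 and 139 instead of 131 and 342 at D1 against D0 in hypoxia. In normoxia it left 204 and 113 instead of 131 and 219 at D1 against D0, and 278 and 210 instead of 172 and 351 at D7 against D3.

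The 3 genes differed in how far they ranged and in the order of the 10 groups. The mean of the highest Aim2 group was 31.8 times that of the lowest, against 9.75 times for Il18 and 1.91 times for Pycard. Averaged over the 20 libraries, Aim2 had 20.5 TPM, Pycard 29.7 TPM and Il18 1.44 TPM, at the percentiles 72.5, 80.2 and 9.97 of all listed mRNAs. For Aim2 the order from the highest mean was normoxia D11, hypoxia D7, hypoxia D11, hypoxia D3, hypoxia D0, normoxia D7, normoxia D0, hypoxia D1, normoxia D3 and normoxia D1. The libraries of hypoxia D0 and normoxia D7 overlapped in this order, and so did those of hypoxia D1 with normoxia D0 and with normoxia D3. The other neighbours did not overlap.

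For Il18 the highest groups were hypoxia D11, normoxia D7 and hypoxia D3, with means of 3.65, 2.74 and 2.30 TPM, and the last 2 of these overlapped. Next came normoxia D3 and hypoxia D0, which also overlapped, with 1.34 and 1.23 TPM, and then normoxia D11 with 0.958 TPM. The 4 lowest groups, normoxia D0, hypoxia D7, hypoxia D1 and normoxia D1, overlapped each with its neighbour and had means of 0.374 to 0.729 TPM. For Pycard normoxia D7 stood above the rest with a mean of 36.6 TPM and hypoxia D7 below it with 19.2 TPM. The 8 groups between them had means of 28.6 to 32.5 TPM, and each overlapped the next. Over the 10 group means, with each library centred on its median, Pearson r was 0.60 between Aim2 and Il18, 0.28 between Pycard and Il18 and 0.14 between Aim2 and Pycard. The groups share days and libraries, and r is a description.

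A list of 63 genes of the inflammasome and of IL-1 and IL-18 signalling was set beside the 3 genes, and 21 of the 63 carry a name in these tables. Because 19 of the 21 are named among mRNAs that the study called in the same comparison, their counts are no independent evidence. The other 10 sensors of the list, among them Nlrp3, carry no name, and the same holds for Gsdmd, the pore-forming gasdermin, and for Il1b. At each of D0, D1 and D3, 1 of the other 18 named members was called higher and 0 lower, beside 0.853%, 1.29% and 1.4% of all mRNAs higher. It was Txnip, which binds thioredoxin and is an activator of NLRP3. Txnip had 224.1 and 203.9 TPM in hypoxia at D0, against 75.5 and 79.7 TPM in normoxia. At D3 it had 373.2 and 363.2 TPM in hypoxia, against 105.3 and 122.2 TPM in normoxia. Its relative log2 fold change was 1.50, 1.58 and 1.76 at D0, D1 and D3 (SE 0.13), and 0.75 and -0.30 at D7 and D11.

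At D7, 6 of the other 18 were called lower in hypoxia and 0 higher, beside 4.86% and 0.688% of all mRNAs. Their median relative log2 fold change was -0.63, where that of all mRNAs is 0. Casp1, the caspase of the complex, had 1.87 and 1.03 TPM in hypoxia, against 9.27 and 9.93 TPM in normoxia. Casp12, another inflammatory caspase, had 4.95 and 3.41 TPM in hypoxia, against 15.4 and 17.2 TPM in normoxia. Both stood well apart, with relative log2 fold changes of -1.94 (SE 0.13) and -1.56 (SE 0.14). Trim21, a cytosolic antibody receptor and ubiquitin ligase, had 1.27 and 0.834 TPM in hypoxia, against 4.67 and 5.13 TPM in normoxia. Il1rl1, the receptor of IL-33, had 5.74 and 3.74 TPM in hypoxia, against 14.1 and 13.2 TPM in normoxia. The other 2 called were Fadd and Irf1. Pycard and Il18 were thus low in the same libraries as Casp1, while Aim2 was not.

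At D11, 12 of the other 18 were called higher in hypoxia and 0 lower, beside 21.2% and 2.64% of all mRNAs. Their median relative log2 fold change was 0.73. Irf1, an interferon-regulatory transcription factor, had 39.4 and 36.5 TPM in hypoxia, against 6.09 and 6.43 TPM in normoxia. Il1r1, the receptor of IL-1, had 33.4 and 39.1 TPM in hypoxia, against 5.84 and 8.80 TPM in normoxia. These had relative log2 fold changes of 1.91 (SE 0.16) and 1.67 (SE 0.17). Ninj1, which ruptures the plasma membrane of dying cells, had 28.1 and 28.2 TPM in hypoxia, against 8.11 and 9.07 TPM in normoxia. Irak4, a kinase downstream of the IL-1 receptor family, had 4.86 and 5.04 TPM in hypoxia, against 1.04 and 1.11 TPM in normoxia. Casp1 had 5.66 and 5.76 TPM in hypoxia, against 1.36 and 1.63 TPM in normoxia, so that its order, like that of Il18, was opposite to that at D7. The count at D11 was smaller once the shift of all mRNAs was removed. With libraries centred on their medians, 3 of the 18 were called higher (Irf1, Il1r1 and Ninj1) and 1 lower (Gbp2), beside 3.92% and 9.73% of all mRNAs. At D7 the centred counts were 1 higher (Irak2) and 4 lower (Casp1, Casp12, Il1rl1 and Trim21), beside 1.73% and 1.92%.

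**Figure D4:**
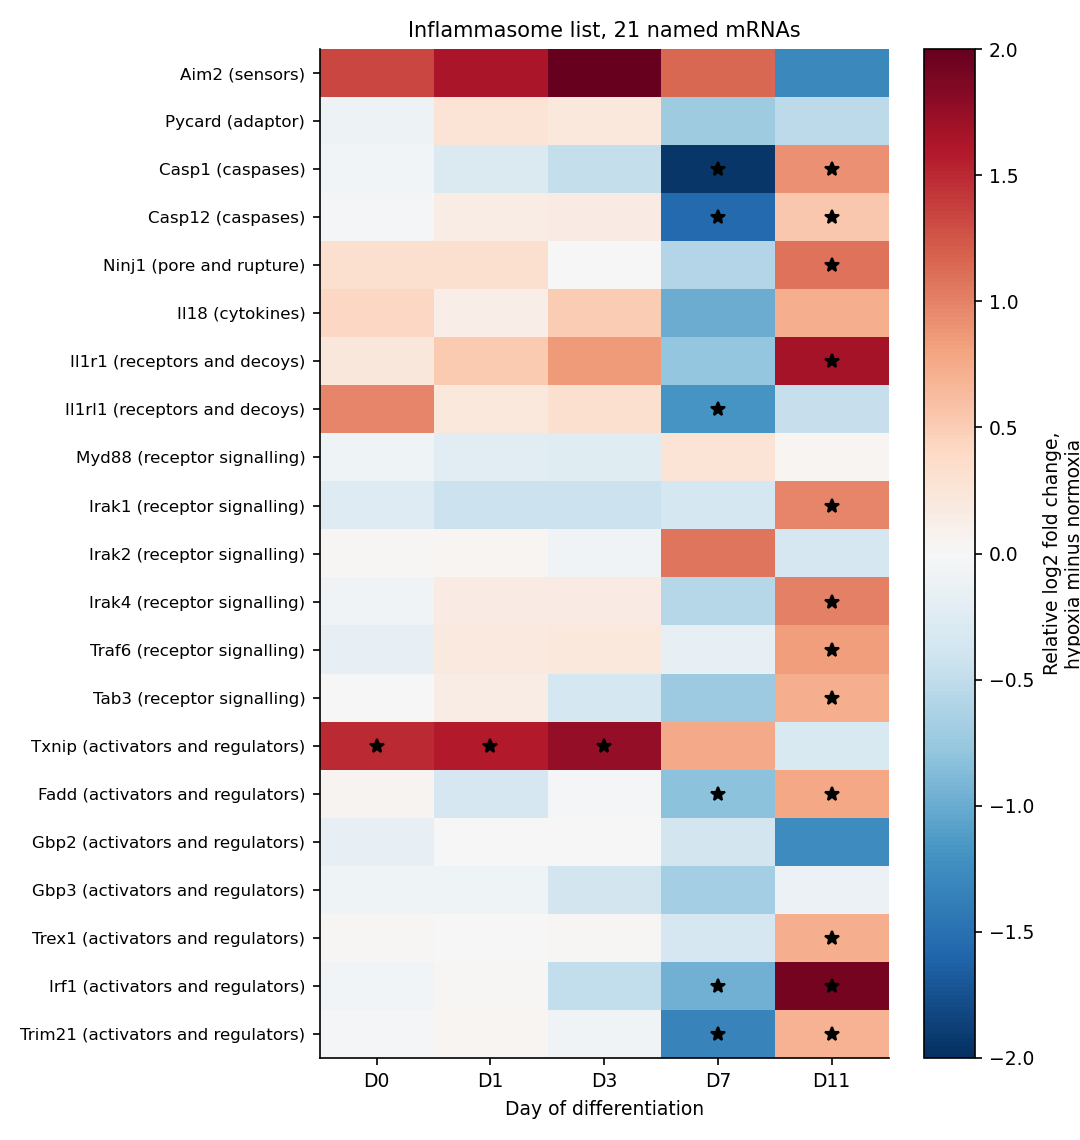
Relative log2 fold change of log2(TPM + 1), hypoxia minus normoxia (colour, limited to -2 to 2), by day (columns) for the 21 named genes of the inflammasome list (rows, with their role). Stars mark genes other than Aim2, Pycard and Il18 that limma called. The column of D7 is mostly below 0 and that of D11 mostly above it, with 6 called lower at D7 and 12 called higher at D11 among the other 18 genes.

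Genes with the most similar course were taken from the named mRNAs with a mean of at least 5 TPM, by Pearson r over the 10 group means, each library centred on its median. For Aim2 they were Galk1 (galactokinase, r = 0.97), Hpse (heparanase, r = 0.97), Adss (adenylosuccinate synthase, r = 0.96), Sema3e (a secreted semaphorin, r = 0.96) and Rit1 (a Ras-related GTPase, r = 0.95). All 5, like Aim2, were lowest in normoxia at D1. The highest group was normoxia D11 for Adss and Sema3e, as for Aim2, and hypoxia D11 for Galk1, Hpse and Rit1. Adss had mean levels of 73.8 TPM in hypoxia at D3, against 45.8 TPM in normoxia, and 87.8 TPM in hypoxia at D11, against 112.2 TPM in normoxia.

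For Il18 they were Nrep (r = 0.96), Il1r1 (r = 0.94), Parp14 (an ADP-ribosyltransferase, r = 0.94), Il15 (a cytokine of natural killer and T cells, r = 0.94) and Tlr4 (the receptor of lipopolysaccharide, r = 0.93). All 5 were, as Il18 was, lowest in normoxia at D1, and all but Parp14 were highest in hypoxia at D11. Il15 had a mean of 3.38 TPM in hypoxia at D7, against 6.64 TPM in normoxia, and of 13.0 TPM in hypoxia at D11, against 4.65 TPM in normoxia. For Pycard, whose levels varied little, the likeness was weaker, with Cetn3 (a centrin, r = 0.81), Mmd (r = 0.80), Cmpk1 (a nucleotide kinase, r = 0.79), Ago4 (an Argonaute protein, r = 0.78) and Col5a2 (a collagen chain, r = 0.77). With Spearman's rho in place of r, 2 of the 5 genes were shared for Aim2, 2 for Pycard and 3 for Il18. Most mRNAs were not candidates, for want of a name or of 5 TPM. Over all mRNAs, 11 had an r above that of the fifth gene given for Aim2, 51 for Pycard and 13 for Il18. These counts include the genes named here above the fifth.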

How the data were processed

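Total RNA of 20 libraries was depleted of ribosomal RNA and sequenced. The authors used CASAVA 1.8.2 and STAR 2.6.0c, with the CriGri-PICR genome, and computed the deposited TPM values with kallisto 0.44.0. All 10318 listed mRNAs had over 1 TPM in both libraries of a group, which is the authors' filter. TPM holds no depth, so the precision that depth gives does not enter the fit and was not estimated. The study's edgeR test on counts was not repeated.

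Log2(TPM + 1) was fitted with 10 group means in limma 3.58.1 (R 4.3.3; eBayes with trend, 10 residual degrees of freedom), and p-values were adjusted over all mRNAs of a contrast by the method of Benjamini and Hochberg. The fit was tested on simulated data. The relative log2 fold change subtracts the median of all mRNAs. Python 3.11.15, pandas 2.3.3, numpy 2.4.6 and matplotlib 3.10.9 were used for tables and figures. Gene names came from the study's tables and include no value from them. The 3 genes and the lists were chosen with earlier results of these data known. Named are the 3 genes, up to 4 called list members a day with the largest relative change, and the 5 named mRNAs most like each gene. Single markers and hypoxia targets, Fadd, Gbp2, Irak2, Irf1 at D7 and Casp1 at D11 were named after their values were seen. Alternatives were a pseudocount of 0.1, a filter of 5 TPM, quantile normalization, median centring, rescaling the listed mRNAs to a common total, a replicate block, fits of 4 libraries or without D11, leaving out each library, and Spearman's rho. The lncRNA table and a planned search of promoters were not used here.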

Additional observations from a re-analysis of the deposited data

Results flagged for a closer look

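In 8 pairs of days the libraries of hypoxia and normoxia stood apart in opposite directions, in TPM and also with each library centred on its median. None of these differences between days was tested. For Aim2 the relative log2 fold change, hypoxia minus normoxia, was lower at D11 than at D0 by a difference of -2.63, than at D1 by -2.93, than at D3 by -3.28 and than at D7 by -2.44. For Pycard the value at D7 differed from that at D1 by -0.97 and from that at D3 by -0.92. For Il18 the value at D7 differed from that at D0 by -1.40, and the value at D11 differed from that at D7 by 1.72. The 5 pairs that include D11 rest on the labels of the D11 libraries, in which 1 of 10 hypoxia targets was called higher in hypoxia and 1 lower.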

How the results depend on the processing

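TPM keeps no depth, groups hold 2 libraries, and gene names favour called mRNAs. Of the oxygen values of the 3 genes under the alternatives, 162 moved by less than 1 SD and 25 by more. Many of the 162 could not move, since some alternatives leave a relative value unchanged by construction. These were median centring (15 values), the replicate block (15), crossed replicate numbers (15), fits of 4 libraries (15) and the fit without D11 (12). Their values are no sign of stability. The sign changed for Pycard at D0 without hypoxia replicate 2 and for Il18 at D1 without normoxia replicate 2, both uncalled. Adding 0.1 TPM gave relative values of 2.07 at D1 and 2.16 at D3 for Aim2, and of 0.73 at D0, -1.71 at D7 and 1.22 at D11 for Il18. Rescaling the listed mRNAs to a common total gave 1.94 for Aim2 at D1, and -1.48 at D7 and 0.98 at D11 for Il18. Quantile normalization gave -0.98, -0.31 and 0.49 at D11 for Aim2, Pycard and Il18. Leaving out 1 library gave 1.16 to 1.52 (D0) and 1.43 to 1.84 (D1) for Aim2, -0.25 to 0.050 (D0) and -0.69 to -0.34 (D11) for Pycard, and -0.073 to 0.35 (D1) and 0.068 to 0.94 (D3) for Il18.

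At the day steps, 272 values kept direction and side of the threshold, 11 gained a call, 5 lost one and 10 were reversed, all 10 of Pycard. Under median centring, quantile normalization and rescaling, Pycard in normoxia at D1 against D0 had 0.043, 0.062 and 0.014, and in hypoxia at D11 against D7 -0.22, -0.029 and -0.061. In hypoxia at D3 against D1 it had 0.019 under centring and 0.00090 under quantile normalization. Leaving out 1 library gave -0.052 to 0.072 (normoxia) and -0.064 to 0.020 (hypoxia) at D3 against D1. For Aim2 at D11 against D7, rescaling gave 0.95 in normoxia, which lost the call, and centring gave -1.01 in hypoxia, which gained one. For Il18 calls were gained with 0.1 TPM in normoxia at D3 against D1 (1.75) and D11 against D7 (-1.41) and in hypoxia at D1 against D0 (-1.46) and D7 against D3 (-1.61). Rescaling gained 3 of these (1.39, -1.71 and -1.34, hypoxia at D1 excepted). Centring (0.70) and quantile normalization (0.72) lost the call in hypoxia at D11 against D7. Leaving out 1 library gave -1.08 to -0.77 in normoxia at D11 against D7, 0.76 to 1.58 in hypoxia at D3 against D1 and -1.36 to -0.55 in hypoxia at D7 against D3.

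Of the inflammasome list, the members called higher and lower at D7 were 0 and 7 in the reported fit, 1 and 12 with 0.1 TPM, 2 and 4 with quantile normalization and with centring, and 2 and 10 with rescaling, and leaving out 1 library gave 0 to 1 higher and 5 to 8 lower. At D11 they were 13 and 0 in the reported fit, 3 and 1 with quantile normalization, 3 and 2 with centring, 14 and 1 with 0.1 TPM and 13 and 1 with rescaling. Spearman's rho shared 2, 2 and 3 of the 5 most similar genes of Aim2, Pycard and Il18. Apart from the shift of all mRNAs that centring removes, the cause was not tested.

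Where a library was left out, the lone library of its group was assumed to vary like the other groups. Replicate numbers are shared by the groups, and correlations of their deviations between 2 groups ranged from -0.34 to 0.28, so they were not taken as pairs. With the replicate block, 571 mRNAs were called at D7 and 2465 at D11, against 572 and 2464 without it, no call of the 3 genes changed, and the list counts were 7 lower at D7 and 13 higher at D11. Crossed numbers for hypoxia D1 and D7, chosen after seeing the data, gave 572 and 2465. Fits of 4 libraries and without D11 changed no call of the 3 genes and no list count. Il18 failed the filter of 5 TPM and has no value there.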
